A study of Homo sapiens with 12 samples.

Results

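The AP-1 and immediate early factors FOS, FOSB, FOSL1, FOSL2, JUN, JUNB, JUND, ATF3, EGR1 and IER3 were followed through knock down of focal adhesion kinase (FAK, gene PTK2), in every array row whose gene name is one of these 10. The 10 genes had 12 of the 47228 probes on the array, and 10 of these, 1 for each gene, were among the 24207 probes tested. Messenger RNA was measured on 12 Illumina arrays, 2 for each of 6 groups. Both cell lines, MIA PaCa-2 and also Capan-1, were established from pancreatic ductal adenocarcinoma (PDAC), and carried a tetracycline-inducible PLKO.1 construct with a scrambled hairpin (shCtrl) or with a FAK hairpin, sh1209 or sh1319. Puromycin selected the construct, at 3.5 ug/ml for MIA PaCa-2 cells but 1.5 ug/ml for Capan-1. Doxycycline at 50 ng/ml for 96 hours induced the hairpins, in wording that the labels give for every sample, controls included. The Capan-1 labels write the second hairpin as shFAK1319, read here as sh1319. The labels do not tell if replicate arrays were grown as separate cultures, so p-values measure only the spread between these samples, which may be technical.

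AP-1 is a dimer of basic leucine zipper (bZIP) proteins. JUN, JUNB and JUND can pair with each other or with FOS, FOSB, FOSL1 and FOSL2, whereas FOS proteins need a JUN partner to bind DNA, and ATF3 pairs with JUN proteins or with itself. Most of these genes, with the zinc finger factor EGR1 and the stress and survival gene IER3, are immediate early genes, which are transcribed within minutes of growth factor, integrin or stress signals without new protein synthesis. FAK relays integrin contact with the matrix to SRC and to the ERK and JNK kinases, which act on FOS and EGR1 transcription and on JUN protein.

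The JUN, JUND and EGR1 promoters are shown because JUN and JUND rose with every hairpin in both lines and EGR1 did not. Each window holds the 250 bases before the RefSeq start site on the gene's own strand, build GRCh38.p14, and capitals mark the motifs found. The JUN window is chr1:58784048-58784297 on the minus strand, and its capitals mark a TGACATCA site, the variant element through which JUN and ATF proteins are known to act on the JUN gene.
JUN: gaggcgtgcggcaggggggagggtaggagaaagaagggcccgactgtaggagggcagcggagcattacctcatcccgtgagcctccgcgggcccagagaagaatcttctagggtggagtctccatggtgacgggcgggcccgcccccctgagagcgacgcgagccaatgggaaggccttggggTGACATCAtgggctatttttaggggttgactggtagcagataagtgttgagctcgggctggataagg
The JUND window is chr19:18281623-18281872 on the minus strand, with a palindromic TGACGTCA element in capitals.
JUND: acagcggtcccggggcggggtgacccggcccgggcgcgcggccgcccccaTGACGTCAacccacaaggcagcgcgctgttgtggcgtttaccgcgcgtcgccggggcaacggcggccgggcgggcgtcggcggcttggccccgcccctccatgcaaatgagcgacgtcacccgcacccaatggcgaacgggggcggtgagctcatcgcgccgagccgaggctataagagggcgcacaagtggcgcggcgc
The EGR1 window is chr5:138465229-138465478 on the plus strand, with 2 CArG boxes, the element bound by serum response factor, in capitals.
EGR1: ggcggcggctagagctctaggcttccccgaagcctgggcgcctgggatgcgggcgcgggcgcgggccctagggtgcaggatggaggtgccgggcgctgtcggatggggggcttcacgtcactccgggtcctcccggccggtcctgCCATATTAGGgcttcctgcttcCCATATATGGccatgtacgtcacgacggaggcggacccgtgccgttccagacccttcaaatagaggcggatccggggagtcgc
The motifs begin 67 bases before the start in JUN, 200 in JUND, and 105 and 83 in EGR1. Promoter entries, which run on for 50 bases past the start, matched 8 of the 10 genes, all but FOSL1 and IER3, and were searched on both strands for TGACTCA, TGACGTCA, TGACATCA, GCGTGGGCG (the EGR site) and the CArG box. No 2 matches overlapped. TGACATCA was also found in ATF3, 123 bases before the start, and TGACTCA in FOSL2, 5 bases after it. The FOS, FOSB and JUNB windows held no exact match to these motifs, and GCGTGGGCG was in no member's window. Sites further than 250 bases before the start, or differing from a motif by a letter, were not searched for. A window without a match therefore does not mean that the gene lacks the element. Among 27305 promoters of this length, 4.92% held TGACTCA, 1.98% TGACGTCA, 2.71% TGACATCA, 1.29% a CArG box and 0.784% GCGTGGGCG. A match describes the letters in the window and not binding.

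Levels are given as log2 of the intensity after background correction and quantile normalization (normalized level), and changes as differences of mean levels, with limma's standard error (SE) and Benjamini-Hochberg adjusted p over all tested probes. A gene is said to have risen or fallen where that adjusted p was under 0.05. Levels of different probes are not set against each other. Each array averages over a culture, so fewer cells expressing a gene and less RNA per cell cannot be told apart. The PTK2 probe 450253 fell with each hairpin, in MIA PaCa-2 cells to 21.1% of control (sh1209) or 17.9% (sh1319), in Capan-1 cells to 65.4% or 29.2%. The Capan-1 fall with sh1209 was 0.61 log2 units (adjusted p = 0.0036), and when arrays were scaled to a common median instead of quantile-normalized PTK2 changed by -0.42 and no longer passed (adjusted p = 0.23). The other PTK2 probe, 2680750, passed in none of the 4 comparisons with control. The median raw intensity per array was 87.7 to 97.0, and 16259 to 19814 probes were detected. Keratins KRT8 and KRT18 were detected in all 12 arrays. The epithelial genes CDH1 and CLDN7 were detected in all 6 Capan-1 arrays and in 0 of 6 MIA PaCa-2 arrays. Of 7 genes each, all Capan-1 arrays detected 7 epithelial, 3 mesenchymal or stromal and 1 leukocyte or endothelial marker, and all MIA PaCa-2 arrays 2, 1 and 1. VIM (probe 830593) and CD68 (probes 3120370 and 4570438) were detected in all 12 arrays, and CDH5, PDGFRB and ZEB1 in none. VIM was not alike in the lines. Its probe 830593 averaged 13.20 over the MIA PaCa-2 arrays and 5.88 over the Capan-1 arrays. The other VIM probe, 7050019, was detected in all 6 MIA PaCa-2 arrays (mean 12.85) and in 0 of 6 Capan-1 arrays. Some markers moved with the hairpins. ACTA2 was not detected in MIA PaCa-2 shCtrl, and its hairpin levels were at least 2.04-fold (sh1209) and at least 5.47-fold (sh1319) higher. KRT19 fell by 1.44 and 1.47 log2 units in the same line, with 1 of 2 arrays of each hairpin detected. In Capan-1 CDH2 rose by 0.75 and 1.29 and ACTA2 by 0.44 and 0.55. Their part in the member changes was not tested.

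Detection decided which members could be followed in which line. A probe counts as detected on an array where its detection p-value is under 0.05. FOSL1, FOSL2, JUN, JUND, EGR1, IER3 and ATF3 (probe 4780128) were detected in all 12 arrays. FOS was detected in all 6 Capan-1 arrays and in 0 of 6 MIA PaCa-2 arrays, so it entered the tests through Capan-1 alone. FOSB was detected in 10 arrays and missed the 2 MIA PaCa-2 arrays with sh1209, and JUNB in all 6 Capan-1 arrays but 2 of 6 in MIA PaCa-2. The other ATF3 probes, 6380735 and 6560575, were detected in 0 of 12 arrays and were not tested.

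**Figure D1:**
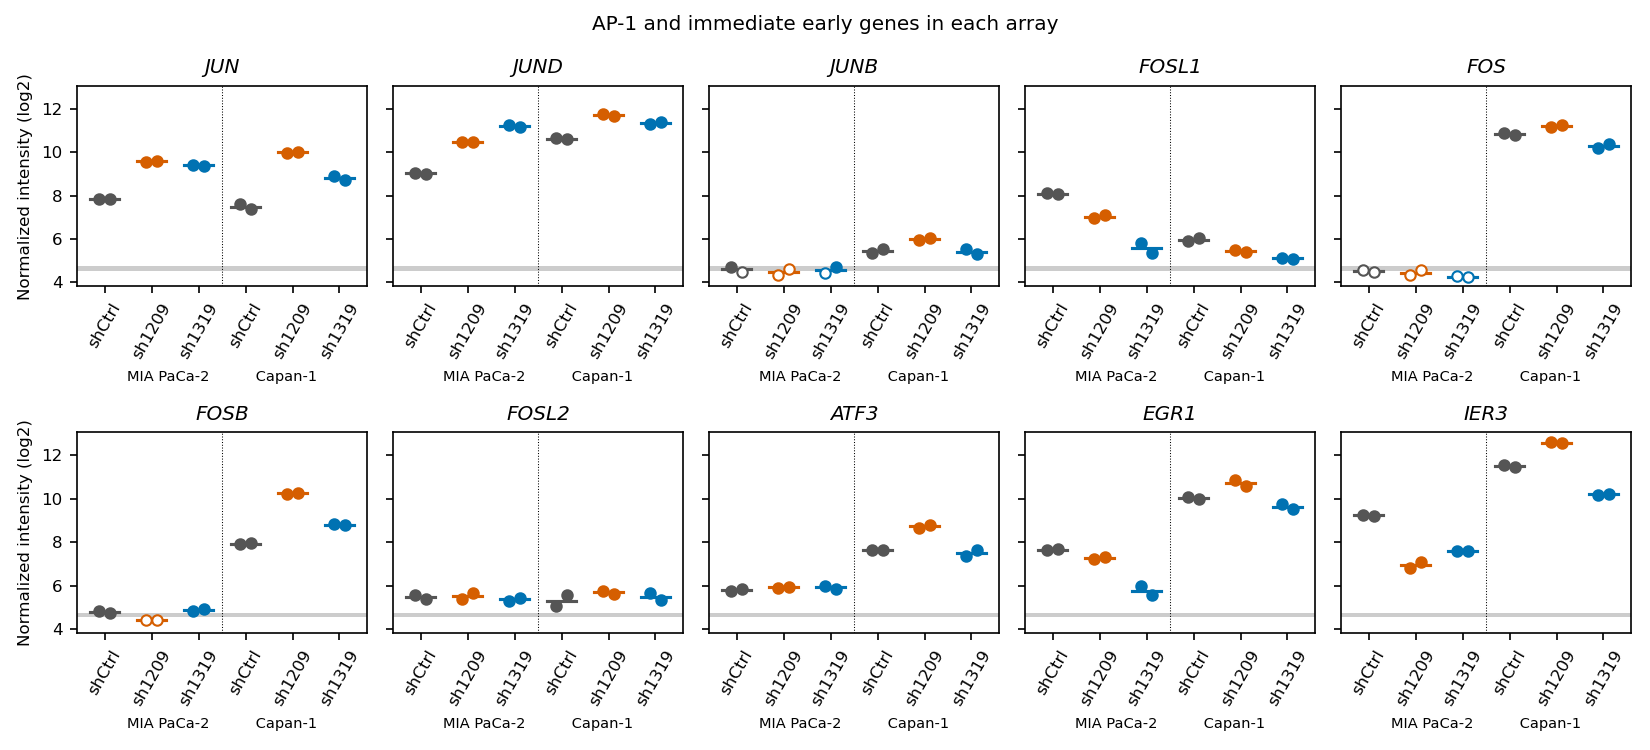
Normalized level (log2 intensity) of each tested member in every array, by hairpin within MIA PaCa-2 (left of the dotted line) or Capan-1 (right). Filled points are detected arrays, open points undetected, bars are means of 2 arrays, and the grey band is the lowest level of a detected probe, 4.55 to 4.74 over arrays. FOS lies at or under the band in MIA PaCa-2 and above 10 in every Capan-1 array.

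With the control hairpin, 9 of the 10 members differed between the lines, against 42.1% of all tested probes. FOS passed the filter only through Capan-1 and had to differ. In MIA PaCa-2 cells 7 members were lower and 2, FOSL1 and JUN, were higher, and the median difference was -1.73 log2 units against 0.04 over all tested probes. FOS, which gives the FOS family its name, was 10.87 and 10.78 in the Capan-1 control arrays and at least 69.4-fold lower in MIA PaCa-2. The bound is set by the lowest level of a detected probe in the MIA PaCa-2 control arrays. FOSB was 8.83-fold lower in MIA PaCa-2, EGR1 5.22-fold, IER3 4.87-fold, ATF3 3.63-fold and JUND 3.03-fold. Each of these 5 had adjusted p of 1.9e-07 or less. JUNB was 1.77-fold lower (adjusted p = 0.00095), with 1 of 2 MIA PaCa-2 control arrays detected. FOSL1, known as FRA-1 and often raised in carcinoma cells with active RAS signaling, ran the other way and was 4.35-fold higher in MIA PaCa-2 (adjusted p = 2.9e-07). JUN was 1.29-fold higher there (adjusted p = 0.033), a difference that did not pass with median scaling (adjusted p = 0.46) or without either MIA PaCa-2 control array or Capan-1 control replicate 2. FOSL2 differed by 0.17 log2 units (95% confidence interval -0.23 to 0.57).

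In MIA PaCa-2 cells both FAK hairpins went with higher JUN and JUND and lower FOSL1 and IER3. With sh1209, 2 members rose (9.05% of all tested probes rose) and 3 fell (8.99% fell). With sh1319, 2 rose (12.2%) and 3 fell (12.1%). The median change of the 10 members was -0.09 with sh1209 and -0.08 with sh1319, against 0.01 and -0.01 over all tested probes. The hairpins were set against the same 2 control arrays, so that these lists are not independent of each other.

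In Capan-1 cells 8 members rose with sh1209 (8.14% of all tested probes rose) and 1, FOSL1, fell (8.69% fell). With sh1319, 3 rose (6.95%) and 3 fell (6.77%). The median change of the members was 0.88 with sh1209 and -0.09 with sh1319, against -0.01 and 0.00 over all tested probes. The sh1209 count rests in part on single arrays: 5 members instead of 9 passed without Capan-1 shCtrl replicate 2, and 5 without Capan-1 sh1209 replicate 1. Over all tested probes the share that passed also fell, from 16.8% to 9.3% and 9.85%. Here too the hairpins shared their control arrays.

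**Figure D2:**
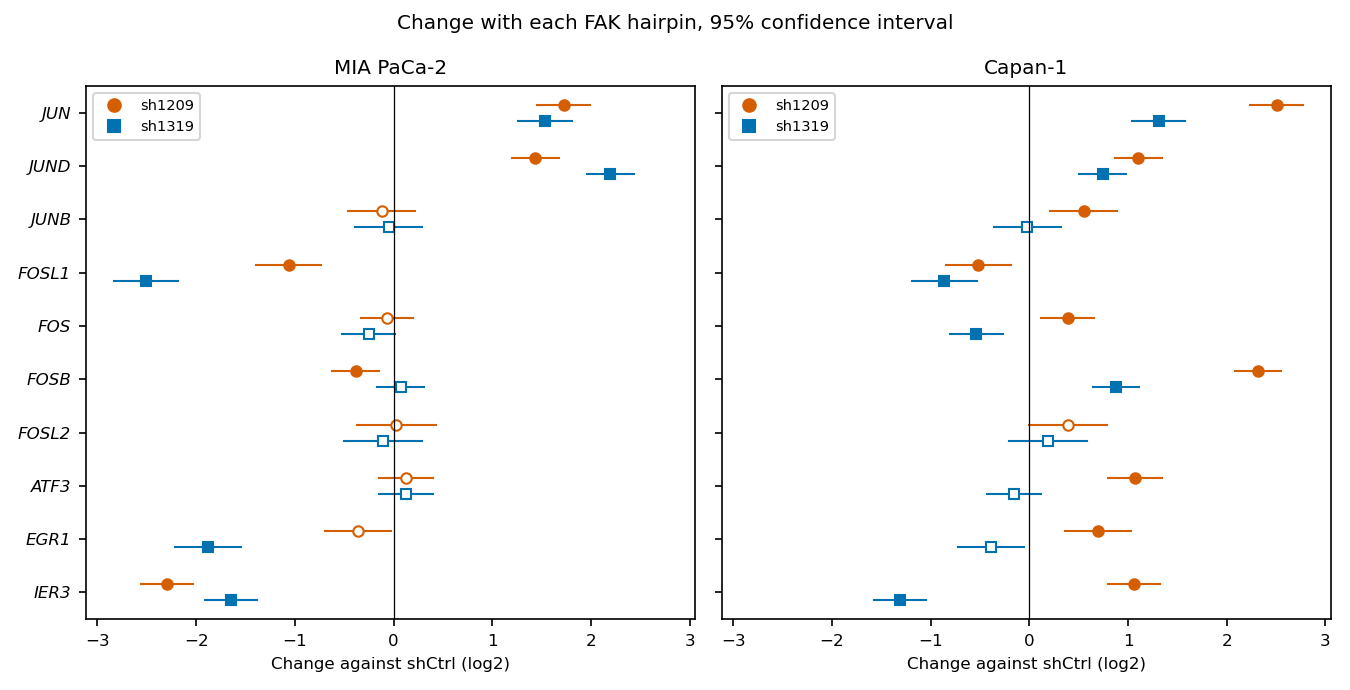
Change of each member against shCtrl (log2, horizontal axis), with MIA PaCa-2 on the left and Capan-1 on the right, for sh1209 (circles) and sh1319 (squares). Bars are 95% confidence intervals, and filled symbols have limma adjusted p under 0.05. JUN and JUND lie to the right of 0 and FOSL1 to the left in all 4 comparisons, while IER3 lies at 1.06 with sh1209 in Capan-1 and at -1.31 to -2.29 in the others.

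JUN (gene at chr1:58780791-58784047, probe 6510367) encodes c-Jun, the transactivating partner of most AP-1 dimers. In MIA PaCa-2 cells its level was 7.86 in both shCtrl arrays, 9.54 and 9.62 with sh1209, and 9.41 and 9.37 with sh1319. In Capan-1 cells it was 7.63 and 7.36 with shCtrl, 9.98 and 10.02 with sh1209, and 8.90 and 8.71 with sh1319. Every array with a FAK hairpin was above every control array of its line. JUN rose 3.30-fold with sh1209 (1.72 ± 0.12 log2 units, SE, limma adjusted p = 2.6e-06) and 2.90-fold with sh1319 (adjusted p = 4e-06) in MIA PaCa-2. It rose 5.68-fold with sh1209 (adjusted p = 1.3e-07) and 2.48-fold with sh1319 (adjusted p = 6.9e-05) in Capan-1. The response was larger with sh1209 than with sh1319 in Capan-1, whose difference was 1.20 ± 0.12 log2 units (adjusted p = 9.5e-05). In MIA PaCa-2 the hairpins differed by 0.19 (95% confidence interval -0.09 to 0.46, adjusted p = 0.35).

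JUND (chr19:18279694-18281622, probe 620280), the JUN protein usually linked to quiescent or slowly growing cells, rose as well. In MIA PaCa-2 its levels were 9.05 and 8.99 with shCtrl, 10.46 and 10.46 with sh1209, and 11.27 and 11.17 with sh1319. In Capan-1 they were 10.65 and 10.59 with shCtrl, 11.77 and 11.69 with sh1209, and 11.32 and 11.41 with sh1319. No group overlapped the control group of its line. For sh1209 and sh1319 in that order, the rises were 2.70-fold and 4.58-fold in MIA PaCa-2 cells, then 2.15-fold and 1.67-fold in Capan-1 cells, with the largest adjusted p 0.001. In MIA PaCa-2 JUND was lower with sh1209 than with sh1319 by 0.76 ± 0.11 log2 units (adjusted p = 0.00035). In Capan-1 it was higher with sh1209 by 0.36, which did not pass (adjusted p = 0.054) but did under 5 of the alternatives.

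JUNB (probe 7550500), which often opposes JUN at shared targets, stayed near the detection limit. Its 6 MIA PaCa-2 arrays lay between 4.34 and 4.73, detected in 1 array each with shCtrl and sh1319 and in none with sh1209, and neither hairpin's difference from control passed the test. In Capan-1 cells it was 5.35 and 5.52 with shCtrl, 5.93 and 6.04 with sh1209, and 5.53 and 5.30 with sh1319. JUNB rose 1.47-fold with sh1209 in Capan-1 (adjusted p = 0.03), and this call was lost without any 1 of the 4 arrays compared.

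FOSL1 (chr11:65892049-65900545, probe 6960332) was the FOS family member that fell with each hairpin. In MIA PaCa-2 cells its levels were 8.10 and 8.08 with shCtrl, 6.96 and 7.10 with sh1209, and 5.83 and 5.34 with sh1319. In Capan-1 cells, where it was dimmer throughout, they were 5.90 and 6.04 with shCtrl, 5.49 and 5.41 with sh1209, and 5.13 and 5.09 with sh1319. The 3 groups of each line did not overlap, in the order shCtrl, sh1209, sh1319. FOSL1 fell to 47.9% of control with sh1209 (adjusted p = 0.00048) and to 17.6% with sh1319 (adjusted p = 3.8e-07) in MIA PaCa-2. In Capan-1 it fell to 69.8% (adjusted p = 0.035) and 55.1% (adjusted p = 0.003). The sh1209 fall in Capan-1 did not pass with median scaling (adjusted p = 0.42) or without any 1 of the 4 arrays compared. Between the hairpins the gap was 1.45 ± 0.15 log2 units in MIA PaCa-2 (adjusted p = 3.4e-05) and 0.34 in Capan-1 (95% confidence interval 0.01 to 0.67, adjusted p = 0.2, not called).

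FOSB (chr19:45467996-45475179, probe 7160239), an inducible FOS protein, moved in Capan-1 cells. It was 7.91 and 7.96 there with shCtrl, 10.23 and 10.27 with sh1209, and 8.83 and 8.78 with sh1319. The 3 groups stood apart in the order sh1209, sh1319, shCtrl. FOSB rose 4.98-fold with sh1209 (adjusted p = 7.5e-08) and 1.84-fold with sh1319 (adjusted p = 0.00035), and the hairpins differed by 1.44 ± 0.11 log2 units (adjusted p = 7.8e-06). In MIA PaCa-2 it was near the detection limit, at 4.84 and 4.74 with shCtrl, 4.42 and 4.39 (not detected) with sh1209, and 4.81 and 4.91 with sh1319. The fall with sh1209 (adjusted p = 0.028) was at least 1.09-fold and was lost under 8 limma alternatives, among them median scaling and the removal of any 1 of the 4 arrays compared. The change with sh1319 was 0.07 log2 units.

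FOS (chr14:75278828-75282230, probe 4280017) gave values in Capan-1 cells only. Its levels were 10.87 and 10.78 with shCtrl, 11.16 and 11.27 with sh1209, and 10.21 and 10.36 with sh1319. The groups did not overlap, with sh1209 highest and sh1319 lowest. FOS was higher with sh1209 than with sh1319 by 0.93 ± 0.12 log2 units (adjusted p = 0.00057). Against control it rose by 0.39 with sh1209 (adjusted p = 0.049), a call lost under 13 limma alternatives, and fell by 0.54 with sh1319 (adjusted p = 0.013). The fall was lost with median scaling (adjusted p = 0.24) and without Capan-1 shCtrl replicate 1, shCtrl replicate 2 or sh1319 replicate 1.

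FOSL2 (probe 1470543), or FRA-2, passed in none of the 8 comparisons. Its 12 arrays lay between 5.05 and 5.76, and its largest change against control was 0.39 log2 units with sh1209 in Capan-1 (95% confidence interval -0.01 to 0.79, adjusted p = 0.19).

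ATF3 (chr1:212565407-212620777, probe 4780128), a stress-induced bZIP factor, responded to sh1209 in Capan-1. Its levels there were 7.65 in both shCtrl arrays, 8.63 and 8.81 with sh1209, and 7.37 and 7.63 with sh1319. Only the sh1209 arrays stood above 8. ATF3 rose 2.10-fold with sh1209 (adjusted p = 0.00016), and the hairpins differed by 1.22 ± 0.13 log2 units (adjusted p = 9e-05). With sh1319 the change was -0.15 (95% confidence interval -0.42 to 0.12). In MIA PaCa-2 the 6 arrays lay between 5.75 and 5.98, with changes of 0.13 and 0.13.

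EGR1 (chr5:138465479-138469303, probe 870338), a serum and growth factor responsive zinc finger factor, was 7.63 and 7.67 with shCtrl in MIA PaCa-2, 7.24 and 7.34 with sh1209, and 5.96 and 5.57 with sh1319. In Capan-1 it was 10.08 and 9.97 with shCtrl, 10.86 and 10.59 with sh1209, and 9.75 and 9.54 with sh1319. The sh1319 arrays were the lowest of each line, and the sh1209 arrays lay between them and control in MIA PaCa-2 but above control in Capan-1. In MIA PaCa-2 EGR1 fell to 27.1% of control with sh1319 (adjusted p = 4.1e-06), while its change with sh1209, -0.36 log2 units, did not pass (adjusted p = 0.14). In Capan-1 it rose 1.62-fold with sh1209 (adjusted p = 0.0091), a call lost without shCtrl replicate 2 or sh1209 replicate 1, and its change with sh1319, -0.39, did not pass (adjusted p = 0.13). With no background correction both of the changes that did not pass were called, and the one in Capan-1 also with a normexp offset of 50. The hairpins differed in each line, with sh1209 higher by 1.53 ± 0.15 in MIA PaCa-2 (adjusted p = 2.5e-05) and by 1.08 ± 0.15 in Capan-1 (adjusted p = 0.00089).

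IER3 (chr6:30743199-30744547, probe 1190367), an early response gene that NF-kB, p53 and ERK act on and that is linked to cell survival, had the largest hairpin difference of the members in Capan-1. In MIA PaCa-2 its levels were 9.27 and 9.21 with shCtrl, 6.81 and 7.08 with sh1209, and 7.61 and 7.57 with sh1319. In Capan-1 they were 11.57 and 11.48 with shCtrl, 12.63 and 12.55 with sh1209, and 10.19 and 10.24 with sh1319. No 2 groups of a line overlapped, and in Capan-1 the FAK hairpins lay on opposite sides of control. IER3 fell to 20.4% of control with sh1209 (adjusted p = 1.9e-07) and 31.9% with sh1319 (adjusted p = 1.8e-06) in MIA PaCa-2. In Capan-1 it rose 2.09-fold with sh1209 (adjusted p = 0.00013) and fell to 40.3% with sh1319 (adjusted p = 5.6e-05), and the hairpins were 5.20-fold apart (adjusted p = 4.4e-07).

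Compared directly, sh1209 and sh1319 differed at 7 of the 10 members in Capan-1 (11.3% of all tested probes differed) and at 5 in MIA PaCa-2 (22.6%). In Capan-1 all 7 were higher with sh1209, namely FOS, FOSB, JUN, JUNB, ATF3, EGR1 and IER3. In MIA PaCa-2 FOSL1 and EGR1 were higher with sh1209, and FOSB, JUND and IER3 were lower. The JUNB difference in Capan-1 (0.57 log2 units, adjusted p = 0.035) was lost with median scaling and without any 1 of the arrays compared. That of FOSB in MIA PaCa-2, at least 1.15-fold, was lost with no background correction, with a normexp offset of 50, with median scaling, with MIA PaCa-2 alone in the fit and without sh1319 replicate 2. On probe 450253 PTK2 itself was 2.24-fold higher with sh1209 than with sh1319 in Capan-1 (adjusted p = 6.2e-05). In MIA PaCa-2 the hairpins left that probe 0.24 log2 units apart (adjusted p = 0.17). The other PTK2 probe, 2680750, gave a different picture. It was higher with sh1209 by 0.59 in MIA PaCa-2 (adjusted p = 0.021), where 1 of 2 sh1319 arrays detected it. In Capan-1 its difference, -0.00054, did not pass. The part of the residual PTK2 in the member differences was not tested.

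The response differed between the lines at 5 of the 10 members (14.4% of all tested probes), tested as the mean change of both hairpins in MIA PaCa-2 minus that in Capan-1. In log2 units, the first value for MIA PaCa-2, IER3 changed by -1.97 and -0.12, FOSB by -0.16 (near the detection limit) and 1.60, EGR1 by -1.12 and 0.15, and FOSL1 by -1.79 and -0.69. JUND changed by 1.82 and 0.92. For IER3 and EGR1 the Capan-1 mean combines hairpins with changes of opposite sign. JUN, at 1.63 and 1.91, did not pass (adjusted p = 0.26, 95% confidence interval of the difference -0.61 to 0.05). PTK2 also fell further in MIA PaCa-2, by 2.36 against 1.19 log2 units in Capan-1 (adjusted p = 0.00021), and its part in these differences was not tested.

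**Figure D3:**
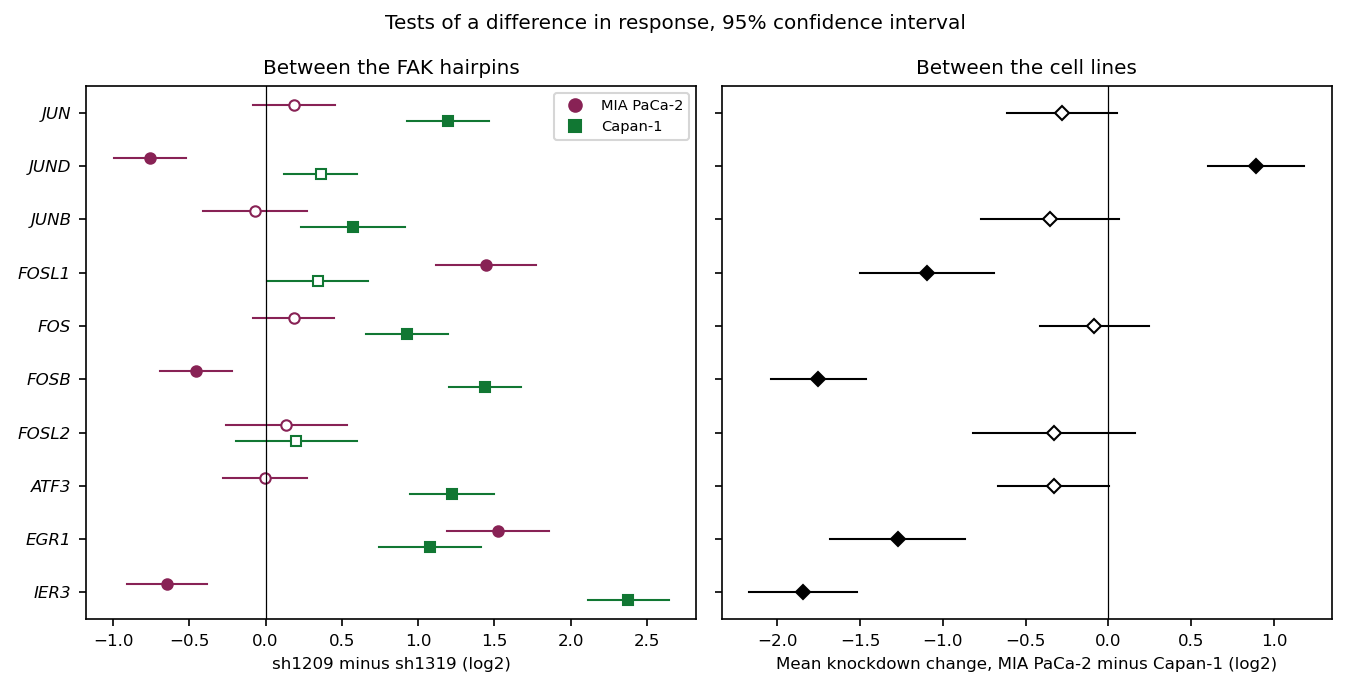
Left, sh1209 minus sh1319 (log2) for each member in MIA PaCa-2 (circles) and Capan-1 (squares). Right, the mean change of both hairpins in MIA PaCa-2 minus that in Capan-1 (log2), with 95% confidence intervals and filled symbols for adjusted p under 0.05. In Capan-1 every hairpin difference lies above 0, from 0.20 for FOSL2 to 2.38 for IER3, and JUND is the filled symbol to the right of 0 among the differences between the lines.

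Other genes of the pathway were followed in lists, and each list count is to be read beside the share of all tested probes. In MIA PaCa-2 9.05% of all tested probes rose and 8.99% fell with sh1209, and 12.2% and 12.1% with sh1319. In Capan-1 8.14% rose and 8.69% fell with sh1209, and 6.95% and 6.77% with sh1319. List counts near these shares do not set a list apart, and no list was tested as a set. Counts are of probes, so a gene with several tested probes can count more than once. Of 36 tested probes of other immediate early genes, 11 rose and 4 fell in MIA PaCa-2 cells given sh1209, and 10 rose and 8 fell with sh1319. In Capan-1, 15 rose and 4 fell with sh1209 and 6 rose and 2 fell with sh1319. The 10 that rose with sh1319 in MIA PaCa-2 became 6 without sh1319 replicate 1 and 5 without sh1319 replicate 2. DUSP1, a phosphatase that switches off MAP kinases, rose by 1.17 and 2.26 log2 units in MIA PaCa-2 with sh1209 and sh1319 (adjusted p = 3.7e-05 and 1.2e-07). It also rose in Capan-1, by 2.39 and 0.87 (adjusted p = 1.2e-07 and 0.00064). CTGF, a matricellular protein and YAP target, fell in MIA PaCa-2 by 2.78 and 2.10 on probe 5690687 (adjusted p = 4.4e-07 and 2.9e-06). On probe 2640292 it changed by -1.65 and -1.10 there. With sh1209 in Capan-1 CTGF rose, by 1.49 on probe 5690687 and 0.95 on probe 2640292 (adjusted p = 9.8e-05 and 0.00027). Its changes with sh1319 in Capan-1, 0.24 and 0.39, did not pass. In Capan-1 the survival kinase SGK1 rose by 3.29 and 1.72 on probe 2030324 and by 3.35 and 1.54 on probe 1410209, with the largest adjusted p 2.3e-05.

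Of 27 tested probes of 19 AP-1 target genes, 2 rose and 4 fell in MIA PaCa-2 cells given sh1209, and 2 rose and 9 fell with sh1319. In Capan-1, 10 rose and 1 fell with sh1209 and 6 rose and 2 fell with sh1319. Those that rose included repeat probes of IL8 and VEGFA with each hairpin, and of PLAUR with sh1209. The 9 that fell in MIA PaCa-2 became 5 without shCtrl replicate 2 or sh1319 replicate 1, and the 6 that rose in Capan-1 became 3 without shCtrl replicate 2 or sh1319 replicate 1. MMP1, interstitial collagenase and a textbook AP-1 target, was 9.51 in MIA PaCa-2 control cells and fell by 5.04 log2 units with sh1209, where 1 of 2 arrays detected it (adjusted p = 4.4e-09). With sh1319 it was not detected and at least 28.0-fold lower (adjusted p = 1.9e-09). MMP10, stromelysin-2, was not detected with either hairpin, and lay at least 2.54-fold below control for sh1209 and at least 2.47-fold for sh1319. Both MIA PaCa-2 shCtrl arrays detected MMP1 and MMP10. Each may have passed the filter through this group, where it is high, which favours a fall. In Capan-1 the chemokine gene IL8 rose by 4.18 and 2.21 on probe 1570553 (adjusted p = 3.6e-08 and 2.4e-05) and by 3.50 and 1.72 on probe 1980309 (adjusted p = 2.5e-08 and 2.8e-05).

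Among 26 tested probes of other bZIP genes, 1 rose and 7 fell in MIA PaCa-2 cells given sh1209, 3 rose and 7 fell with sh1319, and 4 rose and 4 fell and 1 rose and 1 fell in Capan-1. ATF4, the amino acid and stress response factor, fell by 0.99 and 1.26 log2 units in MIA PaCa-2 on probe 7610187 (adjusted p = 0.00028 and 2.8e-05) and changed by -0.89 and -0.91 on probe 3460309 (adjusted p = 0.00014 and 6.6e-05), while on probe 6480053 it changed by -0.24 and -0.10 (adjusted p = 0.55 and 0.82). BATF3, a partner of JUN proteins, fell there with sh1319 by 1.09 (adjusted p = 0.00092), where 1 of 2 arrays detected it, and was at least 2.16-fold lower with sh1209, where it was not detected. In Capan-1 NFE2L1 rose by 0.60 and 0.69 and ATF6 fell by 0.42 and 0.57 (largest adjusted p 0.029), and each of these calls was lost without Capan-1 shCtrl replicate 2, those of ATF6 also with median scaling.

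Of 29 tested probes of upstream kinases and serum response regulators, 6 rose and 2 fell in MIA PaCa-2 cells given sh1209, 0 rose and 3 fell with sh1319, and 3 rose and 0 fell and 2 rose and 3 fell in Capan-1. MAPK8, which encodes the JUN kinase JNK1, fell by 0.63 and 0.60 log2 units in MIA PaCa-2 on probe 1300368 (adjusted p = 0.021 for each). On its probe 4560390 the changes, -0.51 and -0.40, did not pass (adjusted p = 0.056 and 0.12). In Capan-1 MAP3K1, a kinase upstream of JNK, rose by 0.58 and 1.02 (adjusted p = 0.019 and 0.00096), and SRC rose by 0.58 and 0.70 (adjusted p = 0.026 and 0.013). The MAPK8 calls were lost with median scaling and without MIA PaCa-2 shCtrl replicate 2 or either array of the hairpin compared, and the SRC calls and that of MAP3K1 with sh1209 without either Capan-1 shCtrl array or replicate 2 of the hairpin compared.

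Of 15 tested probes of regulators of AP-1 and EGR activity or turnover, 1 rose and 2 fell in MIA PaCa-2 cells given sh1209, 2 rose and 5 fell with sh1319, and 1 rose and 0 fell and 3 rose and 0 fell in Capan-1. DUSP5, a nuclear ERK phosphatase, rose in MIA PaCa-2 by 1.49 and 2.13 log2 units (adjusted p = 2.1e-05 and 7.3e-07). The probes of DUSP6, a cytoplasmic ERK phosphatase, disagreed there. Probe 5260288 fell by 1.13 and 1.25 (adjusted p = 0.0011 and 0.00033), while probe 6250468 changed by 0.04 and 0.04 (adjusted p = 0.9 and 0.91). Heat shock genes, which also respond to the handling of cells, were counted beside these lists. Of 12 tested probes 2 rose and 0 fell in MIA PaCa-2 cells given sh1209, 1 rose and 4 fell with sh1319, and 0 rose and 4 fell and 1 rose and 2 fell in Capan-1. DNAJB1 rose by 0.65 and 1.24 in MIA PaCa-2 (adjusted p = 0.0072 and 5.6e-05), and HSPA8 fell by 0.39 and 0.40 in Capan-1 on probe 430672 (adjusted p = 0.031 and 0.033) but not on probe 2650619 (-0.13 and -0.26, adjusted p = 0.58 and 0.2). The DNAJB1 call with sh1209 was lost without MIA PaCa-2 shCtrl replicate 1 or sh1209 replicate 2, and the HSPA8 calls with median scaling and without any 1 of the arrays compared. Their part in the member changes was not tested.

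**Figure D4:**
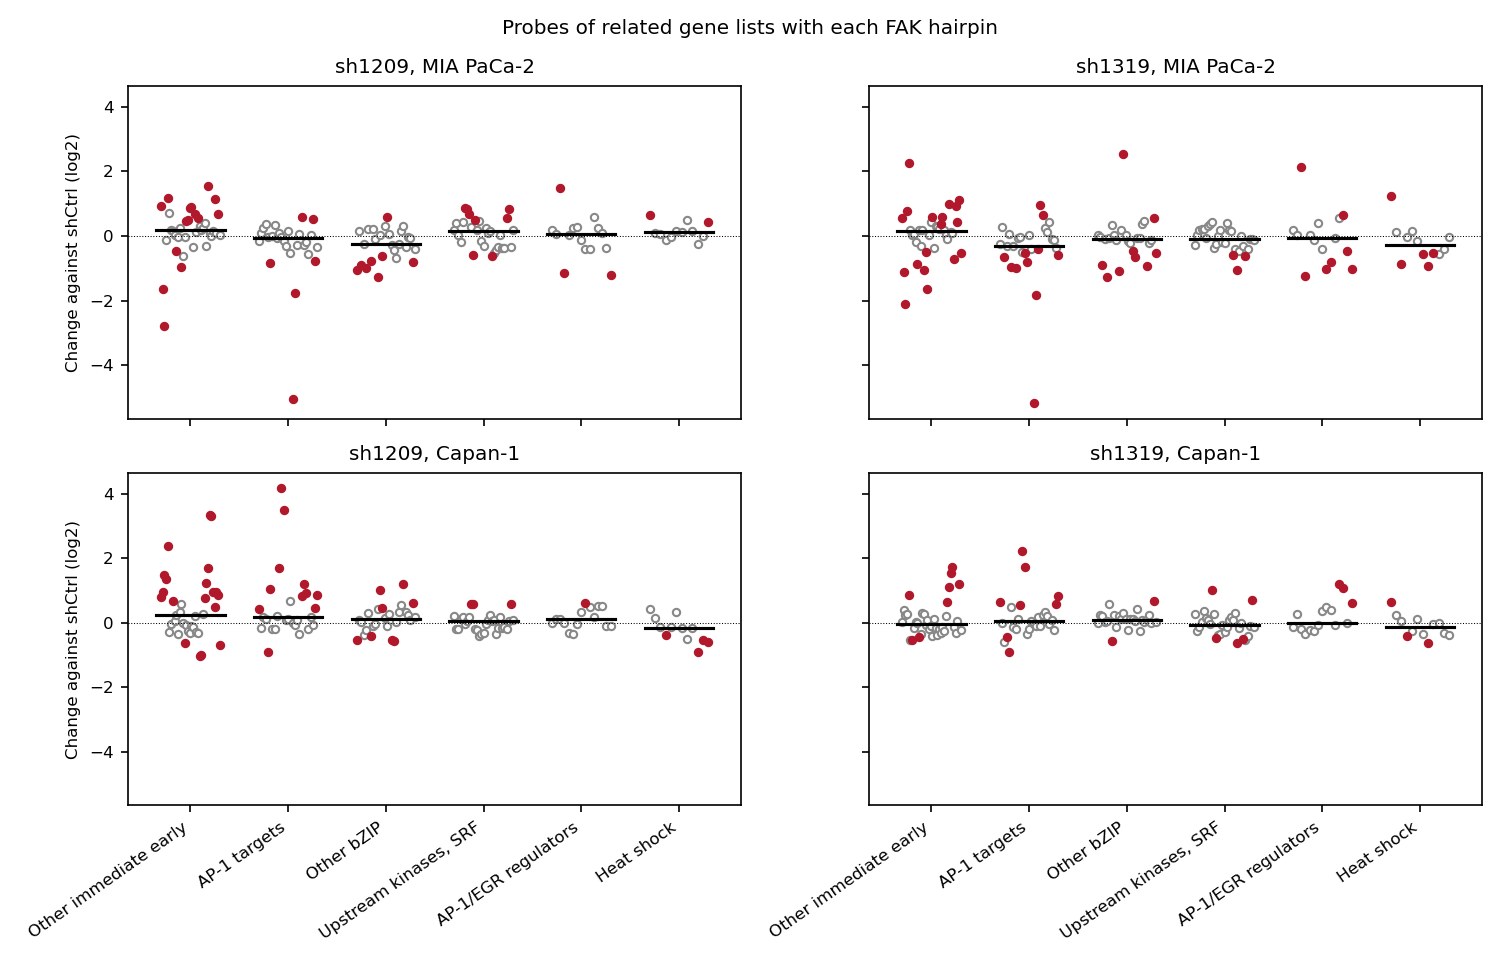
Change against shCtrl (log2, vertical axis) of each tested probe in 6 lists of related genes, for each hairpin and line. Red points have adjusted p under 0.05, grey open points do not, and bars are list medians. The lowest points in MIA PaCa-2 are MMP1, which was detected on 1 of 2 arrays with sh1209 and on 0 with sh1319, so that its drawn values run into background, and the highest in Capan-1 are IL8, at 4.18 and 2.21.

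The genes whose levels followed a member most closely were sought over the 12 arrays for the members with the widest range of group means. FOS was not detected in the 6 MIA PaCa-2 arrays, and its correlations rest mostly on the split between detected and undetected arrays. It was followed by SPINT2, GPR110 and SLPI (Pearson r = 0.9995, 0.9989 and 0.9989). FOSB, likewise not detected with sh1209 in MIA PaCa-2, was followed by ITGB2, KYNU and PPP1R15A (r = 0.997, 0.996 and 0.995). IER3, ranging over 5.64, was followed by POLD4, C6ORF108 and IFI27L2 (r = 0.983, 0.982 and 0.976), and EGR1, ranging over 4.96, by PICK1, IRF9 and PPFIA1 (r = 0.992 for each). The 12 points share cell lines and arrays within groups, and the split between the lines makes up most of each range.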

How the data were processed

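Total RNA, 500 ng per sample, was labelled with biotin and hybridised to Illumina bead arrays, 12 on 1 chip. Probe intensities, not normalized, and their detection p-values were deposited by the authors, exported per the labels from GenomeStudio 2011.1. Of 47320 rows, 92 spike-in controls were left out, and 28 columns without values were ignored. Samples were grouped by the deposited labels. Intensities were background-corrected with normexp by detection p-values (offset 16), quantile-normalized and set on the log2 scale. Probes detected (p under 0.05) in at least 2 of 12 arrays were kept. Differences between the 6 group means were tested with limma 3.58.1 in R 4.3.3 (lmFit and eBayes, 6 residual degrees of freedom), all arrays in 1 fit, with Benjamini-Hochberg adjustment within each comparison and a threshold of 0.05. Confidence intervals are at 95%. The script was tested on simulated data. The number of arrays limits the precision. For a probe detected on no array of a group, the fold is a lower bound, from the brighter mean and the higher of each dim array's lowest level of a detected probe and the probe's own.

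All member probes and PTK2 were named. In each related list and line, the 2 probes with the largest mean change were named among those past the threshold in the same direction with both hairpins, and for the 4 members with the widest range of group means the 3 most correlated probes of other genes. The members and lists were chosen with earlier results of these data known. Genes were placed through RefSeq on GRCh38.p14. Alternatives changed background correction, scaling, filter, replicate block, array weights, samples in the fit and the test (an unpaired t-test, as in the study's methods), and left out each array in turn.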

Additional observations from a re-analysis of the deposited data

Results flagged for a closer look

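The change with FAK knock down differed between the cell lines at 5 members, by limma's test of the mean change of both hairpins in MIA PaCa-2 minus that in Capan-1. The difference was -1.85 log2 units for IER3 (adjusted p = 9.3e-06), -1.75 for FOSB (5.3e-06), -1.27 for EGR1 (0.00089), -1.10 for FOSL1 (0.0022) and 0.89 for JUND (0.00099). FOSB was near the detection limit in MIA PaCa-2, so its MIA PaCa-2 change of -0.16 is bounded by the floor. Each of the 5 passed under all 19 alternatives run for this test.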

How the results depend on the processing

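The 10 members had 80 values, of which 51 passed, and 42 of these kept sign and call under every limma alternative. Of 1650 alternative values 1551 kept their side of the threshold, 89 lost the call, 10 gained it and 0 reversed; 20 values that passed under neither setting turned sign. The methods' t-test on the same values, which uses only the 4 arrays compared, passed 0 members after Benjamini-Hochberg adjustment in each of the 4 comparisons with control and the 2 between hairpins, though at unadjusted p under 0.05 it counted 9 (sh1209) and 6 (sh1319) in Capan-1, 6 and 6 in MIA PaCa-2, and 9 and 6 between the hairpins of these lines. Over all tested probes it counted 4935 and 4393 in Capan-1 and 4613 and 5646 in MIA PaCa-2 at that p, of 24207. Between the hairpins 3988 (Capan-1) and 5492 (MIA PaCa-2) probes reached it. After adjustment no more than 4 of the 24207 probes passed in any of these comparisons, so the 0 does not set the members apart. Between the lines with shCtrl the same test passed 7 members, against 16.1% of all tested probes. Without each array in turn, 5 to 9 members passed with sh1209 in Capan-1, against 9; a group left with 1 array was assumed to vary like the others. With the replicate block, 8 and 6 members passed in Capan-1 and 5 and 5 in MIA PaCa-2 (sh1209 and sh1319), against 16.2%, 13.2%, 17.5% and 24.1% of all tested probes, and FOS with sh1209 in Capan-1 was the member call lost (adjusted p = 0.059). Over 15 pairs of groups, same-numbered deviations from the group means correlated at -0.06 to 0.16 after quantile normalization. That step removes a level difference shared by a whole array, so these values cannot tell whether the replicate numbers pair the samples. The raw median intensity was higher in replicate 2 than in replicate 1 in each group. Median scaling moved the median of all tested probes to 0.11 log2 units with sh1319 in Capan-1. It changed the split of rises against falls over all tested probes from 1971 and 2103 to 2009 and 450 (sh1209, Capan-1), from 1682 and 1640 to 1936 and 334 (sh1319, Capan-1), from 2964 and 2923 to 2562 and 1284 (sh1319, MIA PaCa-2), from 2773 and 2705 to 1206 and 2271 (sh1209 against sh1319, MIA PaCa-2) and, between the lines' responses, from 1753 and 1722 to 581 and 1253. In other counts over all tested probes it gave 2243 against 4365 (sh1209, MIA PaCa-2) and 1217 against 2730 (sh1209 against sh1319, Capan-1). In the lists, AP-1 targets that rose with sh1209 in Capan-1 numbered 7 to 11 under the limma alternatives and other immediate early probes 13 to 16. Of 48 counts of list probes 34 moved by over 1.5 times under at least 1 limma alternative, and 31 of these were counts of 7 or fewer; the t-test passed 0 list probes. The cause of these shifts was not tested. Signal near background limits FOSB and JUNB in MIA PaCa-2, and FOS could not be followed there. Alternatives for the lists were chosen after seeing the data.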
